A study of Xenopus tropicalis with 18 samples.

Results

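Thyroid hormone receptor (TR) binding was described at 3 genes of the circadian clock, nr1d1, ciart and arntl, in tadpole intestine. Their regions were taken by position: every counted region that overlapped one of the genes or lay within 10 kb of it. The rule also left out 4 regions of the neighbouring gene thra, which lay beyond that distance in any case. It gave 3 of 9867 regions, 1 for each gene. The genes themselves were selected on TR signal in these same libraries, as earlier results showed it, so their levels and differences are a description and carry no p-value.

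The circadian clock is a feedback loop of transcription. In mammals, arntl encodes BMAL1, which pairs with CLOCK and activates genes carrying E-box elements. Among those genes are nr1d1, which encodes REV-ERBα, a haem-binding nuclear receptor that represses arntl, and ciart, which encodes CHRONO, a repressor of the CLOCK and BMAL1 pair. TR is itself a nuclear receptor that binds DNA mostly together with RXR, with or without hormone, and the hormone T3 drives remodelling of the frog intestine at metamorphosis.

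Chromatin immunoprecipitation with a TR antibody and sequencing (ChIP-seq) was carried out on intestines of the frog Xenopus tropicalis, from stage 54 tadpoles. There were 18 libraries in 6 groups of 3: TRαKO tadpoles with 10 nM T3 for 18 h, untreated TRαKO, TRβKO with the same T3, untreated TRβKO, wild type with the same T3, and untreated wild type. The series text writes TRαLKO for the first knockout, and how the knockout animals were made is not given in the sources used here. Replicates came from different tadpoles. Whole intestine was used, so fewer cells with TR on a site and less TR per cell cannot be told apart, and ChIP reads do not check the tissue label.

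Levels are CPM, the reads in a region scaled to each library's tags kept after duplicate removal. Depth differed with the groups: 6.03 to 8.02 M kept tags in TRαKO with T3, 7.49 to 9.28 in untreated TRαKO, 2.76 to 3.28 in TRβKO with T3, 5.22 to 5.80 in untreated TRβKO, 2.29 to 2.53 in wild type with T3 and 12.4 to 17.1 in untreated wild type. Redundant tags averaged 21.8% in wild type with T3 and 2.5% in untreated wild type, and lay between these values in the 4 knockout groups. The part of depth and redundancy in the results was not tested. A binding difference is given as log2 ± SE from 1 edgeR fit of all regions, with an approximate 95% interval, and a region counts as called at an adjusted p under 0.05.

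The nr1d1 region, on chromosome 10 at 9041091 to 9041551 (461 bp), lay inside the gene, which spans 9039443 to 9049660. Its centre was 1878 bp from the lower-coordinate end of the gene. The ciart region, on chromosome 8 at 133344222 to 133344926 (705 bp), lay 181 bp beyond the higher-coordinate end of ciart, which spans 133330857 to 133344041. The arntl region, on chromosome 4 at 6828341 to 6829303 (963 bp), lay 3084 bp beyond the higher-coordinate end of arntl, which spans 6797642 to 6825257. It was also 9567 bp from btbd10, so its assignment to arntl rests on distance. Gene positions are those of UCB_Xtro_10.0. The gene table used here holds no strand or exons, so start sites and introns are not named.

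**Figure D1:**
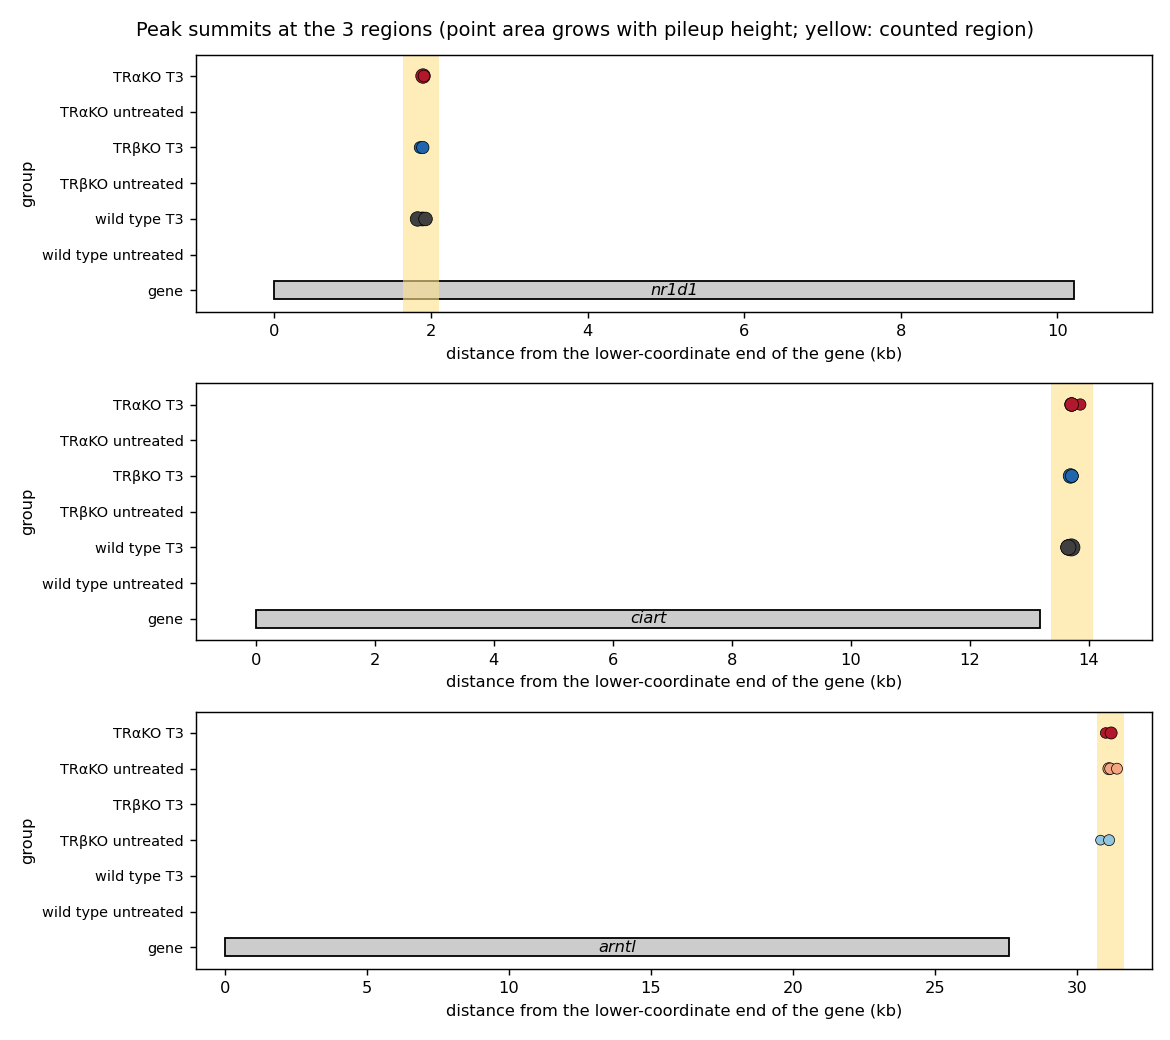
Position of each counted region and of the peak summits at nr1d1, ciart and arntl. The x axis is the distance in kb from the lower-coordinate end of the gene, the grey bar is the gene, the yellow band is the counted region, and each dot is the summit of 1 library's peak, in the row of its group and larger for a higher pileup. Dots at nr1d1 and ciart stand in rows with T3, and dots at arntl stand in the 2 TRαKO rows and in the untreated TRβKO row.

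At nr1d1 and ciart, TR signal was high with T3 in each genotype, highest in wild type and lowest in TRαKO. At arntl no difference with T3 exceeded the spread of the libraries. The signal there was higher in both knockouts than in wild type, though wild type with T3 rests on 12 reads. Except in TRαKO with T3, these differences were not called when certain single libraries were left out.

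TRαKO libraries with T3 had 5.24, 4.09 and 3.48 CPM at nr1d1, against 2.31, 1.08 and 2.0 CPM in untreated TRαKO. TRβKO libraries with T3 had 12.1, 11.3 and 8.71 CPM there, against 0.914, 1.04 and 0.575 CPM in untreated TRβKO. Wild-type libraries with T3 had 15.7, 17.0 and 19.2 CPM there, against 1.76, 0.818 and 0.647 CPM in untreated wild type. The libraries with T3 all lay above the untreated ones of their genotype, and the 3 groups with T3 did not overlap each other. The 3 untreated groups overlapped their neighbours in order. The difference with T3 was 2.42-fold in TRαKO (interval 1.49 to 3.93), 12.4-fold in TRβKO (6.47 to 23.8) and 15.9-fold in wild type (9.96 to 25.4).

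The level at nr1d1 averaged 4.27 ± 0.890 CPM in TRαKO with T3 and 1.80 ± 0.644 CPM in untreated TRαKO (SD, n = 3 each). It averaged 10.7 ± 1.78 CPM in TRβKO with T3 and 0.841 ± 0.239 CPM in untreated TRβKO. It averaged 17.3 ± 1.81 CPM in wild type with T3 and 1.07 ± 0.596 CPM in untreated wild type. These levels rest on few reads, 14 over the 3 untreated TRβKO libraries and 126 over the 3 wild-type libraries with T3.

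The ciart region showed the same order of groups with T3. TRαKO libraries with T3 had 6.23, 5.22 and 6.97 CPM at ciart, against 2.44, 2.58 and 2.94 CPM in untreated TRαKO. TRβKO libraries with T3 had 16.3, 14.3 and 14.5 CPM there, against 2.56, 3.45 and 2.87 CPM in untreated TRβKO. Wild-type libraries with T3 had 27.7, 30.8 and 30.6 CPM there, against 1.97, 1.87 and 1.54 CPM in untreated wild type. Again the groups with T3 stood apart from the untreated ones and from each other. Of the untreated groups, both knockouts overlapped each other and lay above wild type. Of all regions, 6.75% had untreated TRαKO libraries all above wild type and 11.7% had untreated TRβKO libraries all above it. Neither untreated difference at ciart was called, and nothing is read from this order. The difference with T3 was 2.3-fold in TRαKO (interval 1.60 to 3.31), 5.04-fold in TRβKO (3.44 to 7.39) and 16.3-fold in wild type (11.6 to 22.9).

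**Figure D2:**
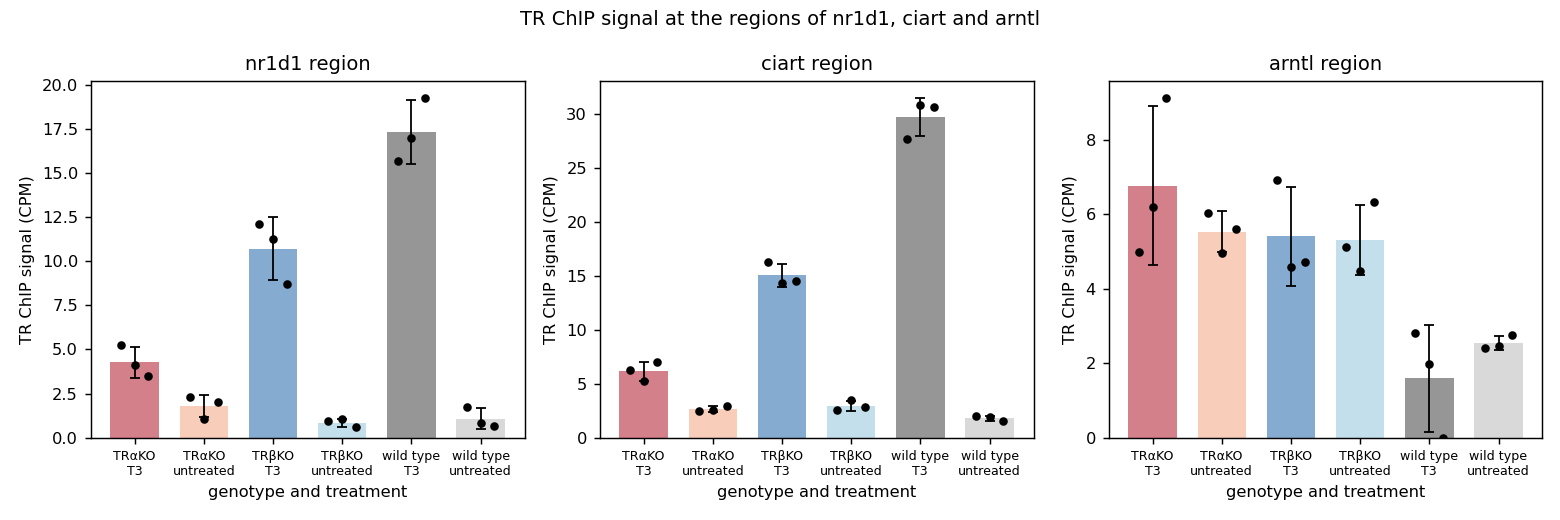
TR ChIP signal at nr1d1, ciart and arntl in every library. The y axis is CPM, the x axis the 6 groups, each dot 1 library, bars the mean and whiskers the SD (n = 3). At nr1d1 and ciart the 3 groups with T3 stand above the untreated groups, while at arntl both wild-type groups are the lowest.

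The arntl region had another order. TRαKO libraries with T3 had 4.99, 6.21 and 9.13 CPM at arntl, against 6.04, 4.95 and 5.61 CPM in untreated TRαKO. TRβKO libraries with T3 had 6.93, 4.57 and 4.72 CPM there, against 5.12, 4.49 and 6.32 CPM in untreated TRβKO. Wild-type libraries with T3 had 2.81, 1.98 and 0 CPM there, against 2.41, 2.45 and 2.75 CPM in untreated wild type. Libraries with and without T3 overlapped in each genotype, and all 12 knockout libraries lay above all 6 wild-type ones. The share of all regions with this order is not given here, so nothing is read from it. The library with no read at arntl held 2.29 M kept tags, which allows a level of up to 1.31 CPM (3 reads, counting error only).

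The difference with T3 at arntl was 0.28 ± 0.31 (log2, interval -0.32 to 0.88) in TRαKO, 0.03 ± 0.37 (-0.69 to 0.74) in TRβKO and -0.63 ± 0.52 (-1.64 to 0.39) in wild type. These intervals reach past a fold of 1.5 in at least one direction, so a moderate difference could have gone undetected.

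Of the 3 regions, nr1d1 and ciart were called higher with T3 in each genotype. Of all tested regions, 8.6% were called higher in TRαKO, 9.49% in TRβKO and 10.2% in wild type. The 3 libraries with T3 lay above the 3 untreated ones in 26.3%, 12.4% and 14.7% of regions in the same genotypes. Nothing is read from these counts, because the genes were chosen with results known. The median difference of all tested regions was 0.46 in TRαKO, -0.16 in TRβKO and 0.02 in wild type (log2). In TRαKO the differences at nr1d1 (1.28 ± 0.36) and ciart (1.2 ± 0.27) are to be set beside that median. With TMM scaling they were 0.89 and 0.81, and neither was called, nor was either with DESeq2 (0.74 and 0.66) or with reads thinned to 1 depth (1.35 and 0.72).

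Per length, wild type with T3 had 42.2 ± 2.48 CPM per kb at ciart, 37.5 ± 3.94 at nr1d1 and 1.66 ± 1.5 at arntl (SD, n = 3). Untreated wild type had 2.54 ± 0.323, 2.33 ± 1.29 and 2.64 ± 0.192 CPM per kb at the same genes. Without hormone the 3 regions of wild type thus overlapped in level per length.

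With T3, both knockouts lay below wild type at nr1d1 and ciart and above it at arntl. TRαKO was lower than wild type by -2.0 ± 0.31 at nr1d1 and -2.28 ± 0.23 at ciart, and higher by 2.02 ± 0.51 at arntl (log2). That is 0.250 times the wild-type level at nr1d1 (interval 0.164 to 0.381), 0.207 times at ciart (0.151 to 0.283) and 4.06 times at arntl (2.02 to 8.17). The 3 TRαKO libraries did not overlap the 3 wild-type libraries at any of the genes. Of all regions 7.3% were called lower and 1.08% higher in this comparison, 12.8% had TRαKO libraries all below and 9.16% all above, and nothing is read from the members' calls of 2 lower and 1 higher.

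TRβKO with T3 differed less from wild type at the repressor genes. It was lower by -0.69 ± 0.31 at nr1d1, which was not called, and by -0.98 ± 0.23 at ciart, and higher by 1.71 ± 0.54 at arntl (log2). The median of all regions was -0.30 in this comparison, and 64.2% of regions were above nr1d1 and 73.7% above ciart. The libraries did not overlap at any of the 3 genes. Of all regions 3.65% were called lower and 0.578% higher, while 13.5% had TRβKO libraries all below and 4.47% all above. The ciart call was lost with TMM scaling (-0.70), and the arntl call was lost without any 1 of 3 libraries (1.17 to 1.87), TRβKO with T3 replicate 1 and wild type with T3 replicates 2 and 3.

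Set directly against each other with T3, TRβKO was higher than TRαKO by 1.31 ± 0.32 at nr1d1 and 1.29 ± 0.24 at ciart (log2), or 2.48-fold (interval 1.61 to 3.82) and 2.45-fold (1.77 to 3.40). At arntl the difference was -0.31 ± 0.35 (interval -1.0 to 0.38) and the libraries overlapped. Both repressor genes were called higher, as were 6.25% of all regions, their libraries did not overlap, as at 9.11% of all regions, and the median of all regions was -0.39. Both stayed called under each alternative that was run. Nothing is read from these calls, because the genes were chosen with results known.

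Without T3, arntl was higher by 1.12 ± 0.31 in TRαKO and by 1.06 ± 0.33 in TRβKO than in wild type (log2), with no overlap of libraries. Called higher were 1.65% of all regions in TRαKO and 2.07% in TRβKO, and libraries lay all above wild type in 6.75% and 11.7%. Both arntl calls were lost when any 1 of their 6 libraries was left out. At ciart the differences were 0.55 ± 0.28 in TRαKO and 0.71 ± 0.30 in TRβKO, and at nr1d1 they were 0.72 ± 0.39 and -0.33 ± 0.50, none of them called. The medians of all regions were -0.28 in TRαKO and -0.18 in TRβKO. DESeq2 called ciart higher in TRαKO (0.81), and with thinned reads its difference in TRβKO was -0.17.

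The difference with T3 was smaller in TRαKO than in wild type at both repressor genes, and smaller in TRβKO at ciart. TRαKO minus wild type was -2.71 ± 0.50 at nr1d1, -2.83 ± 0.37 at ciart and 0.90 ± 0.60 at arntl (log2). TRβKO minus wild type was -0.36 ± 0.59 at nr1d1, -1.70 ± 0.38 at ciart and 0.65 ± 0.63 at arntl. The median of all regions was 0.36 for TRαKO minus wild type and -0.24 for TRβKO minus wild type. Called lower were nr1d1 and ciart in TRαKO, against 5.18% of all regions, and ciart in TRβKO, against 1.52%, a call that was lost with thinned reads (-0.83). Nothing is read from these calls, because the genes were chosen with results known. The interval at nr1d1 in TRβKO, -1.51 to 0.80, covers both no difference and a difference as large as 1 on the log2 scale.

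**Figure D3:**
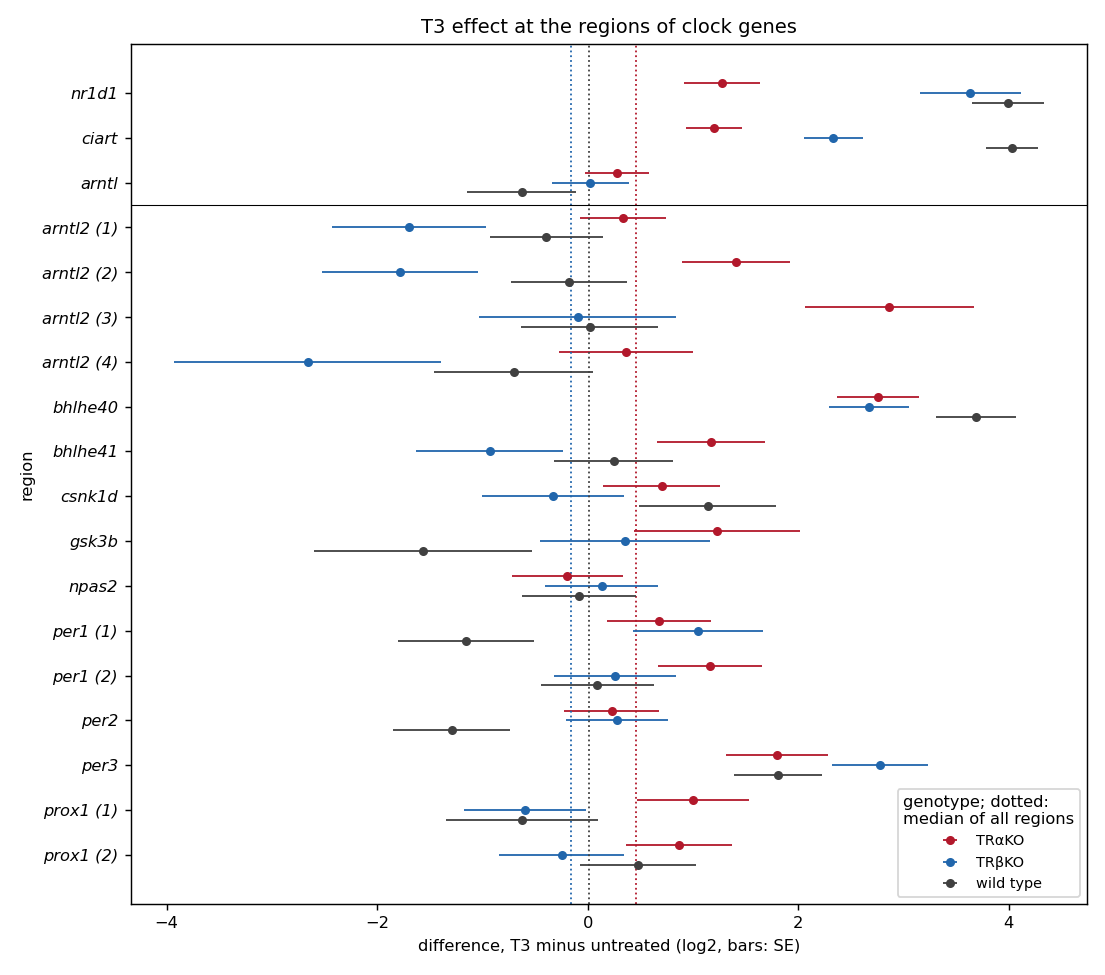
Difference in TR signal with T3 at nr1d1, ciart and arntl and at other clock gene regions. The x axis is the log2 difference, T3 over untreated, points are edgeR estimates, whiskers ± 1 SE, colours the genotypes, dotted lines the median of all tested regions, several regions of a gene are numbered by rising coordinate, and the arntl2 region with 0 reads in a group is left out. The points of nr1d1 and ciart stand right of the dotted line of their colour in all 3 genotypes, farthest in wild type, and those of arntl lie between -0.63 and 0.28.

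The balance among the 3 regions does not depend on library size, since it uses reads of 1 library only. The share of their reads that fell in arntl was 39.0 ± 8.20% in TRαKO with T3 and 55.5 ± 2.2% in untreated TRαKO (SD, n = 3 each). It was 17.2 ± 2.25% in TRβKO with T3 and 58.1 ± 7.46% in untreated TRβKO. It was 3.35 ± 3.09% in wild type with T3 and 47.6 ± 8.23% in untreated wild type. Libraries with T3 lay below the untreated ones in every genotype, without overlap. The other reads of the share are those of nr1d1 and ciart, which were chosen on TR signal, so nothing is read from this order. The mean level at arntl itself was not lower with T3 in the knockouts. It was 6.77 against 5.54 CPM in TRαKO and 5.41 against 5.31 CPM in TRβKO. The wild-type library with no read at arntl had 114 reads in the 3 regions, which allows a share of up to 2.63%.

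**Figure D4:**
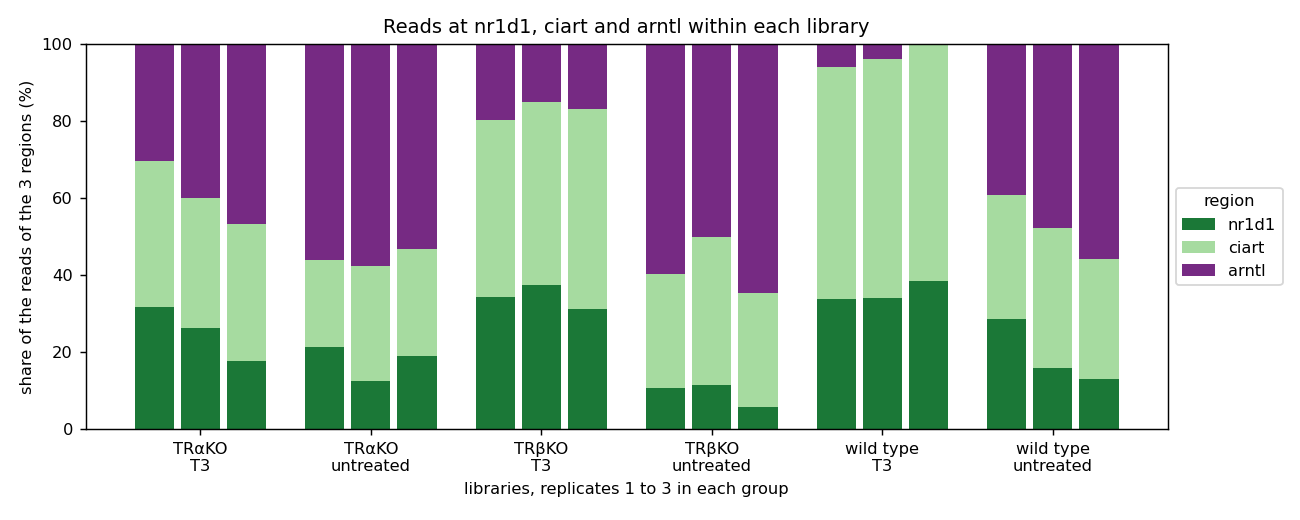
Share of the reads of the 3 regions that fell in nr1d1, ciart and arntl, by library. Each bar is 1 library, the y axis is percent of the reads in the 3 regions, and colours are the genes. The arntl share ranges from 0 to 6.09% in wild type with T3 and from 39.3 to 55.7% in untreated wild type.

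Between the repressor genes the balance moved less. Reads at ciart per read at nr1d1, summed over a group, were 1.40 in TRαKO with T3 and 1.51 in untreated TRαKO. In TRβKO they were 1.40 with T3 and 3.5 untreated, the last from 14 reads at nr1d1. They were 1.72 in wild type with T3 and 1.70 in untreated wild type.

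The authors called peaks in each library on its own. A peak covered part of the ciart region in 9 of 9 libraries with T3 and in 0 of 9 untreated ones, a pattern found at 86 of 9817 regions on chromosomes (0.876%). The nr1d1 region had a peak in 7 of 9 libraries with T3, 2 in each knockout and all 3 of wild type, and in 0 of 9 untreated ones. At least 7 libraries with T3 and 0 untreated ones had a peak at 224 regions (2.28%). The arntl region had a peak in 3 of 3 TRαKO libraries with T3 and 3 of 3 untreated, in 0 of 3 TRβKO libraries with T3 and 2 of 3 untreated, and in none of the 6 wild-type libraries. With a mean level at arntl of 5.41 CPM in TRβKO with T3 and 5.31 CPM in untreated TRβKO, peaks there did not follow the level. Peaks in at least 8 knockout libraries and 0 wild-type ones were found at 3 regions (0.0306%). Nothing is read from these shares, since the genes were chosen on TR signal. Peaks per library numbered 8653, 17717 and 8466 in untreated wild type and 806, 959 and 911 in wild type with T3. They numbered 3039, 6565 and 4592 in TRαKO with T3, and 666, 867 and 805 in TRβKO with T3. Untreated TRαKO had 1008, 1725 and 813 peaks, and untreated TRβKO had 892, 2255 and 998. The part of these numbers in the shares was not tested. Within 10 kb of arntl but outside its counted region, untreated wild type replicate 3 had peaks at 6808040 to 6808322 and 6833907 to 6834219. Their -log10 q was 1.74 and 2.61. TRαKO with T3 replicate 2 had such a peak near nr1d1, at 9032153 to 9032465 (-log10 q of 1.96). Peak calling depends on depth, which was lowest in wild type and TRβKO with T3.

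Summits spanned 102 bp at nr1d1, 201 bp at ciart and 579 bp at arntl. The ciart span rests on the summit of TRαKO with T3 replicate 2, at 133344713 (-log10 q of 3.48). The other ciart summits lay from 133344512 to 133344572. The authors' fold enrichment over local background at nr1d1 was 5.32 to 8.03 in TRαKO with T3, 5.86 to 6.76 in TRβKO with T3 and 9.12 to 10.5 in wild type with T3. At ciart it was 4.48 to 6.79, 7.37 to 7.74 and 9.60 to 13.0 in the same groups. At arntl it was 4.19 to 6.24 over all its peaks. These ranges leave out libraries without a peak. At nr1d1 they cover 2 of 3 libraries of each knockout with T3 and 3 of 3 of wild type with T3.

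The nr1d1 gene lies 13.4 kb from thra, the gene of TRα, with no other gene between them in the table. The strongest region of thra, 54.6 kb from the nr1d1 region, averaged 19.7 CPM in TRαKO with T3 and 4.48 CPM in untreated TRαKO, 41.7 CPM in TRβKO with T3 and 4.56 CPM in untreated TRβKO, and 48.2 CPM in wild type with T3 and 2.13 CPM in untreated wild type. Its groups with T3 had the same order as those of nr1d1.

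Other genes of the clock pathway were read from a list of its activators, repressors and kinases. Of 36 further genes with a position, 10 had a counted region, 17 regions in all, of which 16 were tested. Among the 26 without a region were clock, cry1, cry2, nr1d2, rora and dbp. The list was drawn up by pathway with earlier results of these libraries known, so its calls and p-values, adjusted over all tested regions, are not independent evidence.

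With T3, edgeR called 3 of the 16 regions higher and 0 lower in TRαKO, where 8.6% of all regions were called higher. At an unadjusted p under 0.05, 6 were higher and 0 lower there. DESeq2 gave an adjusted p to only 5 of the 16 regions in TRαKO and called 2. The count of higher calls was 1 with thinned reads and 5 in the fit of these groups alone. In TRβKO 2 were called higher and 1 lower, against 9.49% and 2.27% of all regions (2 and 4 unadjusted, DESeq2 3 called). In wild type 2 were called higher and 0 lower, against 10.2% called higher (2 and 1 unadjusted, DESeq2 3 called). The median difference of the 16 was 0.93 in TRαKO, -0.17 in TRβKO and -0.13 in wild type, against 0.46, -0.16 and 0.02 over all tested regions (log2).

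A repressor of clock genes known as DEC1 in mammals, bhlhe40, had a region 7527 bp from it on chromosome 4 at 130153428 to 130153960, nearer to arl8b. Wild-type libraries with T3 had 12.4, 8.70 and 10.9 CPM at bhlhe40, against 1.10, 0.760 and 0.567 CPM in untreated wild type. The groups did not overlap, nor did they in the knockouts. Signal at bhlhe40 rose with T3 by 2.76 ± 0.39 in TRαKO (log2, edgeR adjusted p = 9.72e-09), by 2.67 ± 0.38 in TRβKO (adjusted p = 3.63e-09) and by 3.69 ± 0.38 in wild type (adjusted p = 1.27e-14). These 3 calls held under each alternative that was run. The level averaged 6.95 ± 0.168 CPM in TRαKO with T3, 11.7 ± 2.19 CPM in TRβKO with T3 and 10.7 ± 1.89 CPM in wild type with T3 (SD, n = 3 each).

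The period gene per3, of the family that represses CLOCK and BMAL1, had a region 5587 bp outside it on chromosome 7. Signal at per3 rose with T3 by 1.80 ± 0.49 in TRαKO (log2, edgeR adjusted p = 0.00425), by 2.78 ± 0.45 in TRβKO (adjusted p = 1.62e-07) and by 1.81 ± 0.42 in wild type (adjusted p = 0.000649). TRβKO libraries with T3 had 14.5, 7.93 and 9.07 CPM at per3, against 2.12, 3.95 and 2.99 CPM in TRαKO with T3, a difference of 1.80 ± 0.38 (adjusted p = 0.000439). The wild-type call was lost without wild type with T3 replicate 3 (1.31, adjusted p = 0.0907), and the TRαKO call without TRαKO with T3 replicate 2 (1.55, adjusted p = 0.0615) or with TMM scaling (1.40, adjusted p = 0.0695) or thinned reads (2.29, adjusted p = 0.0594).

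The other period genes had no region called in this fit. Wild-type libraries with T3 had 1.61, 1.19 and 2.19 CPM at per2, against 4.17, 3.51 and 4.53 CPM in untreated wild type, a difference of -1.29 ± 0.56 (log2, edgeR adjusted p = 0.120). It was called lower with all tags as library size (-1.61, adjusted p = 0.0241) and with DESeq2 (-1.66, adjusted p = 0.0261). At per2 the difference was 0.23 ± 0.45 in TRαKO and 0.28 ± 0.49 in TRβKO. Of the 2 tested per1 regions, the lower-coordinate one differed by 0.68 ± 0.49 in TRαKO, 1.05 ± 0.62 in TRβKO and -1.16 ± 0.65 in wild type. The other per1 region differed by 1.16 ± 0.50 in TRαKO, 0.26 ± 0.58 in TRβKO and 0.09 ± 0.54 in wild type. The lower-coordinate region was called higher in TRβKO without untreated TRβKO replicate 3 (2.22, edgeR adjusted p = 0.0434), and the other in TRαKO in the fit of these groups alone (1.16, adjusted p = 0.0442).

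None of the regions of npas2, bhlhe41, csnk1d, gsk3b and prox1 was called with T3 in the same fit. The region of gsk3b, which encodes a kinase, differed by 1.23 ± 0.79 in TRαKO, 0.35 ± 0.81 in TRβKO and -1.56 ± 1.03 in wild type (log2). The region of bhlhe41, the paralogue of bhlhe40, differed by 1.17 ± 0.51 in TRαKO, -0.93 ± 0.70 in TRβKO and 0.25 ± 0.56 in wild type, and was called higher in TRαKO without TRαKO with T3 replicate 1 (1.57, edgeR adjusted p = 0.0499). The region of csnk1d, a casein kinase gene, lay 3174 bp outside that gene and overlapped or was nearer to trappc5. It differed by 0.70 ± 0.55, -0.33 ± 0.68 and 1.14 ± 0.65 in the same order of genotypes. The region of npas2, a paralogue of clock, differed by -0.19 ± 0.53, 0.13 ± 0.54 and -0.08 ± 0.54. The 2 regions of prox1, a homeobox gene, differed by 1.0 ± 0.53 and 0.87 ± 0.50 in TRαKO, -0.59 ± 0.58 and -0.25 ± 0.59 in TRβKO, and -0.62 ± 0.72 and 0.48 ± 0.55 in wild type.

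The paralogue of arntl, arntl2, had 5 regions, 4 inside it and 1 that lay 8770 bp outside. The 4 inside it also overlap stk38l, and the 1 outside overlaps or is nearer to stk38l. The region outside it had the highest mean level and averaged 0.836 ± 0.916 CPM in TRβKO with T3 and 2.60 ± 0.552 CPM in untreated TRβKO (SD, n = 3 each), a difference of -1.70 ± 0.73 (log2, edgeR adjusted p = 0.0949). It differed by 0.34 ± 0.41 with T3 in TRαKO (adjusted p = 0.681) and by -0.39 ± 0.54 in wild type (adjusted p = 0.794). It was called lower in TRβKO without TRβKO with T3 replicate 3 (-2.93, adjusted p = 0.0204 by edgeR). The 2 called arntl2 regions had 46 reads in TRαKO with T3 and 7 in untreated TRαKO, and 0 reads in TRβKO with T3 and 21 in untreated TRβKO. With 3 reads over the group as floor, the last was 3.79-fold lower than the pooled untreated level. That value is no lower bound, since the error of the 21 untreated reads (5, 14 and 2 by library) is left out. With thinned reads neither of the 2 regions was called (adjusted p = 0.225 in TRαKO and 0.0953 in TRβKO by edgeR). The TRβKO call was also lost in the fit of these groups alone (adjusted p = 0.0640) and without untreated TRβKO replicate 2 (adjusted p = 0.129).

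With T3, 0 of the 16 regions were called in TRαKO against wild type (0 higher and 1 lower unadjusted). DESeq2 gave an adjusted p to 11 of them there and called 0. In TRβKO against wild type 0 were called (1 higher and 2 lower unadjusted). DESeq2 gave an adjusted p to only 5 of them there and called 1. TRβKO against TRαKO gave 1 higher, per3, and 3 lower, all at arntl2, against 6.25% and 4.13% of all regions. The lower calls numbered 2 with TMM, 0 without TRβKO with T3 replicate 2 and 1 without its replicate 3.

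Outside the clock list, the regions most like nr1d1 over the 6 group means were those of LOC108648051, nav2, znf706 and plpp1, with root mean square differences of 0.194 to 0.236 in log2(CPM + 0.5). For ciart they were ccnf, tet3, slc2a11 and ipmk (0.167 to 0.260). For arntl they were LOC108645367, hira, ebi3 and epb41l4b (0.424 to 0.488), so the arntl pattern had no match as close among 6953 regions of 4580 genes. Its mean in wild type with T3 rests on 12 reads, against 126 at nr1d1 and 217 at ciart. The part of counting error in its distances was not tested. The members differed from each other by 0.754 between nr1d1 and ciart, 1.74 between nr1d1 and arntl and 1.75 between ciart and arntl.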

How the data were processed

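The labels' genotype and treatment fields gave the groups of the TR ChIP-seq libraries. Reads were aligned with Bowtie2 2.3.4.1 and counted with DiffBind, per the submitters' processing notes, and peaks were called with MACS 2.2.7.1 without a control library, keeping 1 tag per position, at a q-value limit of 0.05, per the file headers. The genome size set for peak calling was 2700000000 bp in the headers, and its part in the peak calls was not tested. The processing notes name MACS2 2.1.1.20160309. Deposited counts are unscaled whole reads per library in 9867 regions. The deposited peak lists give the pileup signal at the summit, the fold enrichment (a ratio to local background) and p-values and q-values as -log10, per the file headers.

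The model was that of edgeR 4.0.16 (R 4.3.3, limma 3.58.1): the robust quasi-likelihood test, 1 mean per group, all 18 libraries, kept tags as library size. filterByExpr left 9342 regions, over which p-values of 10 contrasts were adjusted by Benjamini-Hochberg, two-sided. The SE comes from the model's covariance. The chi-square of replicate pairs per degree of freedom was 1.86 to 2.26 (18 pairs), and p-values reflect only how far these samples spread. A peak counted with an overlap of at least 1 bp. DESeq2 1.42.0 was an alternative, beside TMM, all tags, reads thinned to 1 depth, fits of the compared groups alone, the replicate block and leaving out each library. Tables and figures used Python 3.11.15, numpy 2.4.6, pandas 2.3.3, scipy 1.17.1 and matplotlib 3.10.9.

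The genome build is not given in the sources used here. With UCB_Xtro_10.0 gene positions, 13.1% of regions lay within 1 kb of a gene end, against 8.57% to 9.78% after shifts of the positions. Genome sequence was not used here, so no motifs were searched. The genes and the clock list were chosen with earlier results of these data known. The text names the 3 genes, the clock list genes with a region (1 gene of the list is not reported here), some of those without one and, for each of the 3, the 4 genes of most like pattern; the 2 called arntl2 regions were singled out after their values were seen.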

Additional observations from a re-analysis of the deposited data

Results flagged for a closer look

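The difference in TR signal with T3 was not of the same size in the knockouts and wild type at 2 of the 3 genes, as the interaction term of the edgeR fit picked out. At nr1d1 the TRαKO minus wild type value was -2.71 on the log2 scale. At ciart it was -2.83 for TRαKO and -1.70 for TRβKO, and the last was -0.83 and not called with thinned reads. The genes were selected on TR signal in these libraries, so these values are descriptions and the passed threshold supports nothing.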

How the results depend on the processing

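At nr1d1, ciart and arntl no called difference changed sign under the alternatives run. These alternatives refit the same libraries, so a kept call is not further evidence. TRαKO against wild type with T3 kept its call at all 3 genes. With all libraries its difference ranged over -2.20 to -1.79 at nr1d1, -2.41 to -2.06 at ciart and 2.01 to 2.40 at arntl (log2). When 1 library was left out no call was lost, and the ranges were -2.18 to -1.88, -2.37 to -2.17 and 1.48 to 2.68. The T3 difference of nr1d1 in TRαKO was also not called without untreated TRαKO replicate 2 (0.99) or TRαKO with T3 replicate 1 (1.09). The TRβKO minus wild type difference at ciart was not called with thinned reads (-0.83), nor was arntl in TRβKO against wild type with T3 (1.67) or in the fit of these groups alone (1.71). Untreated, the arntl calls were lost with all tags as library size (1.0 in TRαKO, 0.91 in TRβKO) and thinned reads (1.03 and 1.07). The cause was not tested.

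Scaling moved the median of all regions: with TMM the T3 difference had a median of 0.07 in TRαKO, -0.22 in TRβKO and -0.16 in wild type, against 0.46, -0.16 and 0.02. Counts of called regions moved by over 1.5 times as follows. The T3 effect in TRαKO called 810 regions, against 447 with TMM and 339 with thinned reads. TRβKO against wild type with T3 called 395 (54 higher, 341 lower), against 211 with TMM (74 and 137), 116 in the fit of these groups alone and 242 with DESeq2 (110 and 132). TRβKO against TRαKO with T3 called 970 (584 and 386), against 621 with thinned reads, and split 672 and 247 with TMM, 520 and 546 with all tags and 717 and 149 with DESeq2. Untreated, TRαKO against wild type called 257 (154 and 103), against 50 with thinned reads, 948 with these groups alone and 439 with DESeq2, and split 336 and 43 with TMM. Untreated TRβKO called 369 (193 and 176), against 46, 971 and 561, and split 321 and 113 with TMM. TRαKO minus wild type called 588 (104 and 484), against 193 with thinned reads, and split 235 and 349 with all tags. TRβKO minus wild type called 167, against 97 with TMM, 92 with all tags, 35 with thinned reads and 99 with these groups alone. The T3 effects split 410 and 154 in TRαKO with DESeq2 (803 and 7 as reported). In wild type they split 904 and 240 with DESeq2 and 902 and 273 with all tags (956 of 1057 higher as reported).

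Leaving out 1 library gave 614 to 690 calls for T3 in TRαKO, 1017 to 1105 in TRβKO, 985 to 1121 in wild type, 587 to 716 for TRαKO and 267 to 330 for TRβKO against wild type with T3, 698 to 850 between the knockouts, 143 to 181 and 171 to 259 untreated, and 460 to 621 and 93 to 160 for the differences of T3 effects. Peaks at the 3 regions numbered 24 of 54 pairs of library and region, and 15 with -log10 q of at least 5.

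Deviations of same-numbered replicates had small, mostly positive correlations (r -0.0057 to 0.038 over 24 pairs). Pairs of different number had -0.031 to 0.017 (48 pairs). Whether the numbers pair the libraries is not settled by these values. With the replicate block the T3 effect in wild type called 1036 regions and arntl in untreated TRβKO was not called (1.05). Depth limits arntl in wild type with T3 (12 reads).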
